A study of Homo sapiens with 12 samples.

Results

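The response to geniposide was compared between 2 human cell lines labelled Huh7 and HepG2, gene by gene, as a difference of effects. Geniposide is an iridoid glycoside of gardenia fruit. Lines of these names are known as hepatocellular carcinoma (Huh7) and hepatoblastoma (HepG2) lines. The libraries lack the main hepatocyte transcripts, as given below. Each line was sequenced as poly(A) RNA without treatment (controls) and after 48 h with geniposide, with 3 libraries in each of the 4 groups. The sources used here give neither the dose nor any vehicle in the controls. By its title, the study links geniposide to the oxidase DUOX1 and to ferroptosis, the form of cell death in which iron drives the peroxidation of membrane lipids. The comparison below asks where the 2 lines responded differently.

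Of 58735 genes in the table, 9417 had a mean of 2 FPKM or more over the 6 libraries of each line, and these make up the comparison. FPKM are fragments per kilobase of gene, scaled to a total for each library set by the authors. They are 8657 protein-coding genes, 295 long non-coding RNAs, 331 pseudogenes and a few genes of other kinds. The mean runs over treated and untreated libraries, so a change could decide whether a gene near the limit was included: 477 of the 9417 had a group with a mean under 2 FPKM, among them HSPA1A, NUPR1, SCARF2, CRY2 and TEF of the genes described below. In the other 8940 genes 1415 differences were higher and 1361 lower, a set defined after seeing the data. A further 6101 genes were tested but fell short of 2 FPKM in 1 line or both. Just inside the limit stood LCOR and RPL23AP7, with means of 2.0006 and 2.0018 FPKM in HepG2 and differences of 0.11 and -0.28. Just outside stood GKAP1 and ZP3, with 1.9999 and 1.9996 FPKM in Huh7 and differences of 0.03 and -0.53. The difference of effects is the change in log2(FPKM + 1) in HepG2 minus the change in Huh7. It is positive where the change was higher in HepG2 and negative where it was higher in Huh7. A gene is called where limma's adjusted p, corrected over all 15518 tested genes, was under 0.05, and values after ± are standard errors.

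Cells meet a shortage of amino acids or misfolded protein with the integrated stress response, in which a general brake on translation lets the transcription factor ATF4 be made. ATF4 switches on genes for amino acid import, serine synthesis and tRNA charging, together with stress regulators such as ATF3, DDIT3 and TRIB3. Cholesterol synthesis is governed by SREBP2, which is released when sterols are low and held back by INSIG1. Hypoxia-inducible factors raise glycolytic enzymes and genes such as VEGFA when oxygen is limited.

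A single library stood apart from its group, and differences and counts of called differences are therefore given with and without it. Effects within a line are from all 12 libraries unless it is said otherwise. The third library of geniposide-treated Huh7 lay at a root mean square distance of 0.391 log2 units from the mean of the other libraries of its group. The other 2 lay at 0.235 and 0.236, measured from means that include the third. Every library of the other groups lay at 0.138 to 0.178. Fragments assigned to genes numbered 15056655 to 17211659 per library, and 16043058 in that one. Most markers of hepatocytes were absent: of 12 secreted hepatocyte proteins only APOE, VTN and C3 reached 1 FPKM in any group, and ALB, TTR, AFP and APOB gave 6, 3, 2 and 0 fragments over the 12 libraries together, against what the labelled lines are known for. The lines are called here by their labels. CEBPA was the only one of 4 hepatocyte factors at 1 FPKM. Of 4 endothelial markers 0 reached 1 FPKM in any group, and of 5 leukocyte markers 1 did. The 5 cholangiocyte markers summed to 315 to 325 FPKM in untreated and 158 to 161 FPKM in treated HepG2. In Huh7 that sum was 2.57 to 4.53 FPKM. Each of KRT7, KRT19, SOX9 and MUC1 reached 1 FPKM in the mean of some group, and EPCAM did in no group. The 6 fibroblast markers summed to 36.7 to 38.3 FPKM and 44.5 to 46.6 FPKM in untreated and treated HepG2, and to 4.65 to 4.93 FPKM and 4.96 to 7.41 FPKM in Huh7. The part of any of these in the results was not tested. In bulk libraries, fewer cells that carry a transcript and less of it per cell cannot be told apart.

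The lines responded differently in 2932 of the 9417 genes, 31.1% of them. The change was higher in HepG2 for 1503 genes (16.0%) and lower in HepG2 for 1429 (15.2%). Among all tested genes 27.8% were called. Without the third treated Huh7 library 4308 genes were called (45.7%), 2225 higher (23.6%) and 2083 lower (22.1%). All but 25 of the 2932 calls were kept in the same direction, none turned, and 1401 were gained. The median difference over the 9417 genes was -0.0069, and 0.0041 without the third library. Differences of at least 2-fold were found in 249 called genes, 134 higher and 115 lower. Without the third library there were fewer, 192, with 98 higher and 94 lower, although more genes were called. Here 2-fold is taken on the log2 scale of the test and not on FPKM itself, and that scale understates the change of low genes. With voom on recovered fragments in place of FPKM, the calls were 1145 higher and 1732 lower, so 39.8% were higher instead of 51.3%. Voom was scaled to the fragments assigned to genes. The total behind the deposited FPKM was 1.09 to 1.10 times that sum in untreated Huh7 and 1.15 to 1.17 times in treated Huh7. In HepG2 it was 0.895 to 0.914 times the sum. The part of this scaling in the shift was not tested. Counts of called genes in a list are to be read against these shares over all 9417 genes.

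The 2 effects ran in the same general direction across genes, with a Pearson r of 0.42 and a Spearman rho of 0.43 over the 9417 genes (0.50 and 0.49 without the third library). Genes are not independent replicates, and the lines share no library. In Huh7 1567 genes rose (16.6%) and 2382 fell (25.3%), and in HepG2 2028 rose (21.5%) and 2746 fell (29.2%). Without the third library these shares were 22.4% and 34.0% in Huh7 and 28.4% and 37.0% in HepG2, where no library had been removed but all groups share 1 estimate of the spread. The 3 treated libraries were all higher than the 3 untreated ones for 21.2% of genes in Huh7 and 30.7% in HepG2, and all lower for 30.1% and 39.0%. Of the 2932 called genes, 1987 were called in 1 line alone, 468 moved the same way in both lines by unequal amounts, and 94 were called in neither line by itself. In 383 genes (13.1% of the called) the effects were opposite and each passed the test: 220 rose in HepG2 and fell in Huh7, and 163 rose in Huh7 and fell in HepG2. Without the third library 706 of 4308 called genes were opposite, 394 and 312 in the 2 directions. Then 2333 were called in 1 line alone, 1194 moved the same way in both and 75 were called in neither. The median standard deviation within a group was 0.152 in treated Huh7 and 0.055 to 0.071 in the other groups. With a shared spread, a call in 1 line alone does not show that the other line did not respond.

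**Figure D1:**
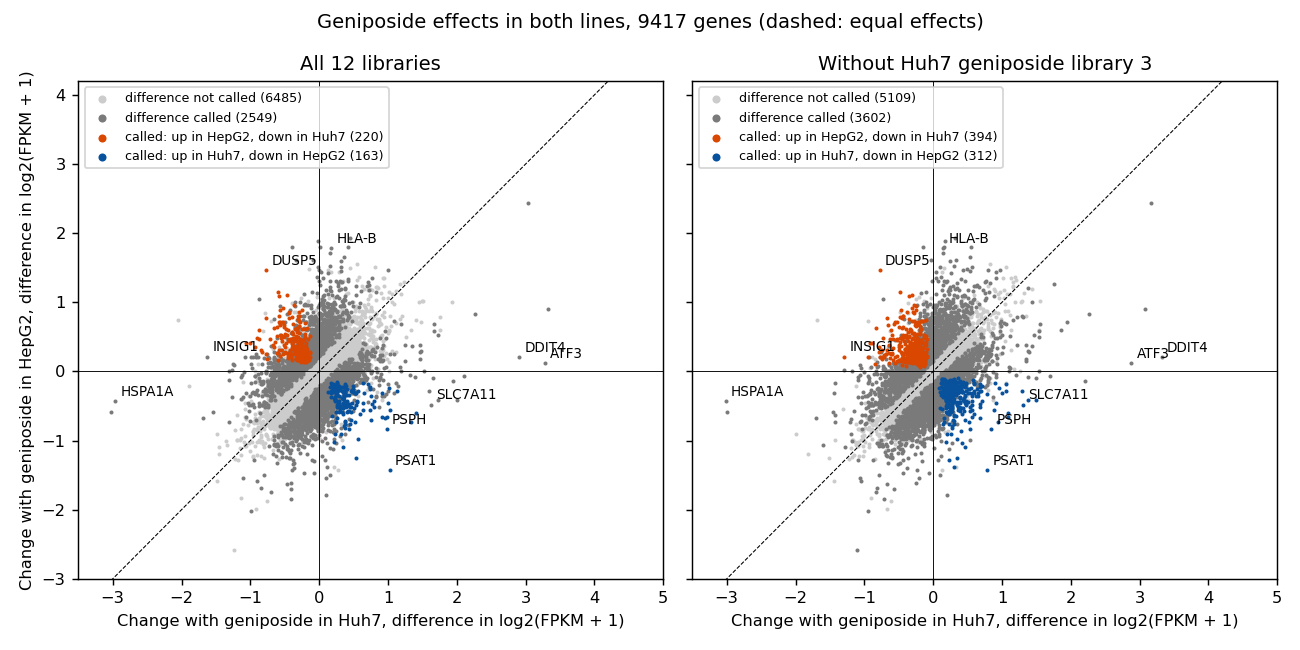
Change with geniposide in Huh7 (horizontal) and HepG2 (vertical) for 9417 genes, as differences in log2(FPKM + 1), with all 12 libraries on the left and without the third treated Huh7 library on the right. Orange points rose in HepG2 and fell in Huh7 (220 and 394 genes), blue points rose in Huh7 and fell in HepG2 (163 and 312), and the dashed line marks equal effects.

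Genes that ATF4 is known to switch on rose in Huh7 and mostly did not in HepG2. Of 30 such genes in the comparison, 25 had a lower difference and 1 a higher one (86.7% called), with a median difference of -1.25. Without the third library there were 26 lower and 3 higher, with a median of -1.10. In Huh7 26 of the 30 rose and 1 fell, and in HepG2 6 rose and 10 fell. The 30 genes had median changes of 0.83, 0.81 and 1.40 in the 3 treated Huh7 libraries and -0.26, -0.22 and -0.19 in the 3 treated HepG2 libraries. All 3 Huh7 values are positive and all 3 HepG2 values negative, and the third Huh7 library is the highest. In 9 genes the effects were opposite and both called (16 without the third library).

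Serine synthesis showed the opposition most plainly. PSAT1, the aminotransferase of that pathway, stood at 148, 137 and 142 FPKM untreated and 248, 243 and 404 FPKM with geniposide in Huh7, and 78.4, 73.7 and 75.8 FPKM untreated and 26.0, 26.2 and 30.5 FPKM with geniposide in HepG2. The treated values lay above all untreated ones in Huh7 and below them in HepG2. Its effects were 1.02 ± 0.16 (adjusted p = 0.000756) and -1.43 ± 0.16 (adjusted p = 5.02e-05), a difference of -2.46 ± 0.23 (adjusted p = 5.9e-05), and -2.22 ± 0.09 (adjusted p = 6.81e-07) without the third library. PSPH, the phosphatase that makes serine, stood at 13.4, 12.8 and 11.9 FPKM untreated and 23.8, 23.5 and 31.6 FPKM with geniposide in Huh7, and 16.5, 16.0 and 14.8 FPKM untreated and 7.53, 8.56 and 9.14 FPKM with geniposide in HepG2. It too separated from its controls in opposite directions, with a difference of -1.81 ± 0.15 (adjusted p = 3.34e-05) and -1.68 ± 0.10 (adjusted p = 4.13e-06) without that library. PHGDH, the first enzyme of the pathway, had effects of 0.51 in Huh7 and -0.53 in HepG2 and a difference of -1.04 ± 0.10 (adjusted p = 6.95e-05, and -0.96 ± 0.07 with adjusted p = 9.02e-06 without the third library). SHMT2, which passes the serine carbon to folate in mitochondria, rose in both lines (0.47 in Huh7 and 0.47 in HepG2), and its difference of 0.01 ± 0.08 (adjusted p = 0.966, and -0.03 ± 0.07 with adjusted p = 0.754 without the third library) did not pass. CTH, which makes cysteine from cystathionine, stood at 17.0, 15.3 and 16.7 FPKM untreated and 47.3, 48.4 and 140.3 FPKM with geniposide in Huh7, and 13.0, 12.4 and 12.7 FPKM untreated and 8.50, 9.94 and 9.34 FPKM with geniposide in HepG2. It rose in every treated Huh7 library, its effect of -0.42 ± 0.32 (adjusted p = 0.333) in HepG2 passed only without the third library (adjusted p = 0.000131), and its difference was -2.43 ± 0.45 (adjusted p = 0.00318), or -1.92 ± 0.08 (adjusted p = 8.31e-07) without the third library.

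Amino acid carriers followed. SLC7A11, the cystine importer that feeds glutathione, stood at 6.88, 5.86 and 5.77 FPKM untreated and 17.3, 16.0 and 33.7 FPKM with geniposide in Huh7, and 4.67, 4.77 and 4.51 FPKM untreated and 3.29, 2.85 and 2.99 FPKM with geniposide in HepG2. Every treated Huh7 value lay above every untreated one, and every treated HepG2 value below, although the HepG2 effect of -0.48 ± 0.21 (adjusted p = 0.0922) passed only without the third library (adjusted p = 0.000173). The difference was -2.11 ± 0.30 (adjusted p = 0.000725), and -1.78 ± 0.10 (adjusted p = 2.81e-06) without that library. Its partner chain SLC3A2 had effects of 0.91 in Huh7 and -0.65 in HepG2, both called, and a difference of -1.56 ± 0.31 (adjusted p = 0.00452, and -1.21 ± 0.06 with adjusted p = 1.24e-06 without the third library). SLC1A4, a carrier of alanine and serine, had effects of 1.40 in Huh7 and -0.60 in HepG2 and a difference of -2.01 ± 0.30 (adjusted p = 0.000934, and -1.69 ± 0.12 with adjusted p = 1.07e-05 without the third library). The glycine carrier SLC6A9 moved likewise, by 1.14 in Huh7 and -0.29 in HepG2, with a difference of -1.42 ± 0.09 (adjusted p = 7.58e-06, and -1.35 ± 0.06 with adjusted p = 1.17e-06 without the third library). SLC38A2, a glutamine carrier, had a difference of 0.27 ± 0.28 (adjusted p = 0.5) that passed only without the third library, at 0.59 ± 0.05 (adjusted p = 2.29e-05), and then in the other direction from the carriers above.

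Several stress regulators of the group rose in Huh7. ATF3, a repressor made under stress, stood at 11.8, 10.04 and 9.94 FPKM untreated and 75.6, 92.8 and 195 FPKM with geniposide in Huh7, and 3.44, 3.16 and 4.30 FPKM untreated and 4.33, 3.55 and 4.17 FPKM with geniposide in HepG2. Its difference of -3.16 ± 0.38 (adjusted p = 0.000283) was the lowest of the called protein-coding genes with 2 FPKM in both lines, and was -2.76 ± 0.17 (adjusted p = 4.49e-06) without the third library. DDIT4, an inhibitor of the growth kinase mTORC1, stood at 29.8, 27.9 and 23.9 FPKM untreated and 270.2, 289 and 118 FPKM with geniposide in Huh7, and 288, 297 and 274 FPKM untreated and 324, 338 and 328 FPKM with geniposide in HepG2. It differed by -2.70 ± 0.37 (adjusted p = 0.000605, and -3.11 ± 0.10 with adjusted p = 3.54e-07 without the third library). The untreated HepG2 values lay within or above the range of the treated Huh7 values. TRIB3, which feeds back on ATF4, differed by -2.14 ± 0.32 (adjusted p = 0.000946, and -1.79 ± 0.13 with adjusted p = 1.07e-05 without the third library). DDIT3, which encodes CHOP, rose in both lines, by 2.26 in Huh7 and 0.83 in HepG2, and the difference was -1.43 ± 0.15 (adjusted p = 0.000136, and -1.43 ± 0.17 with adjusted p = 0.000163 without the third library). EIF4EBP1, a translation repressor, was among the 8 strongest opposite genes, with effects of 0.96 in Huh7 and -0.68 in HepG2 and a difference of -1.64 ± 0.27 (adjusted p = 0.00151, and -1.35 ± 0.10 with adjusted p = 1.46e-05 without the third library). PPP1R15A, which ends the response, did not pass with 12 libraries (difference -0.97 ± 0.41 (adjusted p = 0.101)) and did without the third (difference -0.52 ± 0.11 (adjusted p = 0.00465)). NUPR1, a stress cofactor, passed with 12 libraries at -1.40 ± 0.45 (adjusted p = 0.0397), and at -0.90 ± 0.11 (adjusted p = 0.000265) without the third. It had an untreated mean under 2 FPKM in Huh7.

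**Figure D2:**
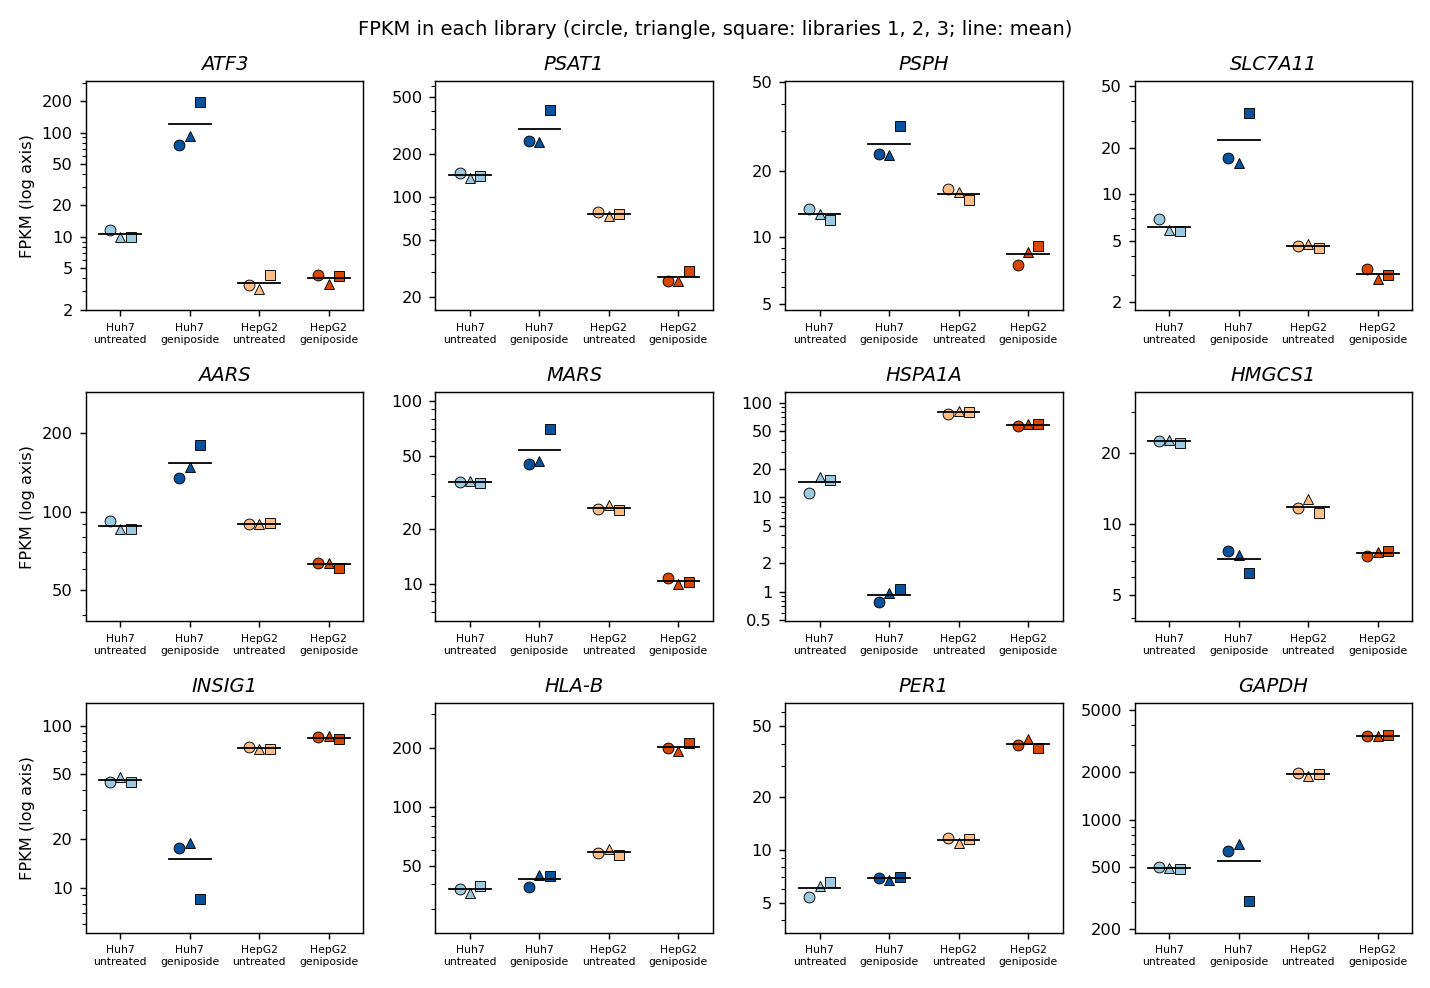
FPKM on a log axis in each of the 12 libraries for 12 genes, with circles, triangles and squares for libraries 1, 2 and 3 of each group and a line at the group mean. PSAT1, PSPH, AARS and MARS separate from their controls upwards in Huh7 and downwards in HepG2, and the third treated Huh7 library (square) stands away from the other 2 for ATF3, SLC7A11, INSIG1 and GAPDH.

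The cytosolic aminoacyl-tRNA synthetases, which load amino acids onto their tRNAs, fell in HepG2, while in Huh7 some rose and some fell. Of 20 members, 15 had a lower difference and 0 a higher one (75% called), with a median of -0.80 (16 and 0 without the third library, median -0.62). In HepG2 17 of the 20 fell and 1 rose, and in Huh7 7 rose and 6 fell. The median change of the list was 0.03, 0.04 and 0.48 in the treated Huh7 libraries, where the third library alone is well above 0, and -0.61, -0.63 and -0.56 in those of HepG2. AARS, for alanine, stood at 92.0, 85.9 and 85.8 FPKM untreated and 134, 148 and 179.9 FPKM with geniposide in Huh7, and 89.6, 89.9 and 90.7 FPKM untreated and 63.8, 63.7 and 60.6 FPKM with geniposide in HepG2. It differed by -1.31 ± 0.12 (adjusted p = 6.88e-05) and by -1.19 ± 0.06 (adjusted p = 2.21e-06) without the third library. MARS, for methionine, stood at 36.1, 36.4 and 35.6 FPKM untreated and 45.3, 46.9 and 69.7 FPKM with geniposide in Huh7, and 25.6, 27.0 and 25.3 FPKM untreated and 10.8, 9.95 and 10.2 FPKM with geniposide in HepG2. It differed by -1.80 ± 0.18 (adjusted p = 9.46e-05, and -1.60 ± 0.05 with adjusted p = 3.54e-07 without the third library). Both rose in Huh7 and fell in HepG2, as did CARS (0.79 in Huh7 and -0.43 in HepG2), YARS (0.76 in Huh7 and -0.70 in HepG2), GARS (0.73 in Huh7 and -0.56 in HepG2) and TARS (0.24 in Huh7 and -0.73 in HepG2). WARS, for tryptophan, had the deepest fall of the list in HepG2 (-1.54 ± 0.19 (adjusted p = 0.000104)), and its effect in Huh7 of 0.10 ± 0.19 (adjusted p = 0.738) passed only without the third library, at -0.20 ± 0.04 (adjusted p = 0.0021). HARS and RARS, for histidine and arginine, fell in both lines, with differences of -0.09 and 0.08 (-0.15 and 0.21 without the third library) that did not pass in either fit.

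The promoters of several of these genes hold the amino acid response element through which ATF4 acts. The letters TGATGNAA were searched on both strands in the RefSeq promoters of GRCh38.p14, each 300 bases from 250 before the annotated start. The element occurred in 6 of the 16 synthetase genes with a promoter in that table (37.5%), in 3 of 25 ATF4 targets (12%), in 107 of 7339 members (1.46%) and in 1003 of all 27305 promoters (3.67%). It occurred in 10 of 131 genes that rose in Huh7 and fell in HepG2 (7.63%), several of which are also in the synthetase list, and in 1 of 179 genes with the opposite pattern (0.559%). A match is a description of the letters and not of binding. A few windows are shown because they carry the element in genes whose effects differed, with RefSeq's present symbols, 5′ to 3′ along the gene and the element in capitals. They are AARS1 at chr16:70289646-70289733 (minus strand), CARS1 at chr11:3057404-3057465 (minus strand), IARS1 at chr9:92293678-92293750 (minus strand), MARS1 at chr12:57488024-57488087 (plus strand), TARS1 at chr5:33440927-33440984 (plus strand), BCAT1 at chr12:24949102-24949189 (minus strand) and GOT1 at chr10:99430775-99430862 (minus strand).
AARS1: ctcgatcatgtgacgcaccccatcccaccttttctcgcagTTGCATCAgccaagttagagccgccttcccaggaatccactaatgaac
CARS1: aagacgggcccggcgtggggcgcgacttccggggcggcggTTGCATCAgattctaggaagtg
IARS1: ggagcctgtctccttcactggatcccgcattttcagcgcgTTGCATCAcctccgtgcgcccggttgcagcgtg
MARS1: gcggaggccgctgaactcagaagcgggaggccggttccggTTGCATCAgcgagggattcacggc
TARS1: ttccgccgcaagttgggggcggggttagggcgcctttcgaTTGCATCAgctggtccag
BCAT1: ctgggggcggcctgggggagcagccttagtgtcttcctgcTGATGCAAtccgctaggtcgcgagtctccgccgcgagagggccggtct
GOT1: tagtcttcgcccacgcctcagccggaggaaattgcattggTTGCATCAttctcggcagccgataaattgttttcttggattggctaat

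AARS1, CARS1, IARS1, MARS1, TARS1 and GOT1 share the letters TTGCATCA, and BCAT1 has TGATGCAA, the same element read on the other strand. The match began at -187 from the annotated start in AARS1, at -13 in IARS1, at -4 in MARS1 and at -2 in CARS1. BCAT1 and GOT1, aminotransferases of branched-chain amino acids and of aspartate, rose in Huh7 and fell in HepG2. Their effects were 0.44 in Huh7 and -0.76 in HepG2 for BCAT1 and 0.64 in Huh7 and -0.57 in HepG2 for GOT1, and their differences were -1.20 and -1.20 (-0.99 and -0.93 without the third library), called in both fits. IARS fell in HepG2 by 0.93 on the log2 scale, and its effect of 0.30 ± 0.14 (adjusted p = 0.12) in Huh7 did not pass.

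Most heat shock chaperones fell in both lines (15 of 23 in Huh7 and 20 of 23 in HepG2), and several of the HSP70 family fell more in Huh7 while others fell less there. HSPA1A, an inducible HSP70 gene on chr6:31815464-31817946 (plus strand), stood at 11.2, 16.4 and 15.3 FPKM untreated and 0.777, 0.965 and 1.06 FPKM with geniposide in Huh7, and 75.4, 80.6 and 80.4 FPKM untreated and 57.1, 58.8 and 58.9 FPKM with geniposide in HepG2. All treated values lay below all untreated ones in both lines, and the difference of 2.54 ± 0.16 (adjusted p = 5.5e-06) was the highest of the called protein-coding genes with 2 FPKM in both lines, at 2.59 ± 0.17 (adjusted p = 6.13e-06) without the third library. Its near-identical neighbour HSPA1B stood at 116, 135 and 141 FPKM untreated and 14.5, 16.5 and 14.2 FPKM with geniposide in Huh7, and 45.0, 40.1 and 46.9 FPKM untreated and 27.4, 27.3 and 31.7 FPKM with geniposide in HepG2. It differed by 2.44 ± 0.13 (adjusted p = 2.82e-06, and 2.40 ± 0.14 with adjusted p = 3.19e-06 without the third library). Fragments of the 2 copies can be split by the counting, so the level of each alone is uncertain. HSPA1A had a treated mean under 2 FPKM in Huh7 and was included through its untreated level. HSPA8, the constitutive family member, had effects of -1.68 in Huh7 and -0.67 in HepG2 and a difference of 1.01 ± 0.09 (adjusted p = 5.9e-05, and 1.03 ± 0.09 with adjusted p = 3.4e-05 without the third library). HSPH1, which resets HSP70, differed by 0.58 ± 0.12 (adjusted p = 0.0047, and 0.69 ± 0.06 with adjusted p = 3.57e-05 without the third library). The HSP70 relatives HSPA4 and HSPA4L, the small chaperone HSPB8 and the HSP90 partner AHSA1 went the other way, with differences of -0.63, -0.42, -1.19 and -0.55 (-0.40, -0.36, -0.77 and -0.47 without the third library). Over the 23 chaperones the calls were 5 higher and 4 lower (39.1% called), with a median of 0.13 (9 higher and 5 lower without the third library).

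Proteasome subunits fell in HepG2 and most fell in Huh7, and most called differences among them were lower in HepG2. Of 29 proteasome subunits 17 had a lower difference and 1 a higher one (62.1% called), with a median of -0.47 (19 and 1 without the third library, median -0.33). All 29 fell in HepG2 and 18 fell in Huh7 (29 and 28 without the third library). PSMB3 and PSMD13, of the core and the cap of the proteasome, differed by -0.71 and -0.63 (-0.71 and -0.61 without the third library). PSMD6 alone went the other way, by 0.40 ± 0.06 (adjusted p = 0.00124, and 0.41 ± 0.05 with adjusted p = 0.000382 without the third library). The 8 subunits of the TRiC chaperonin, which folds actin and tubulin, fell in both lines, and 4 of them fell more in HepG2 (5 lower and 1 higher without the third library), among them CCT5 and CCT2, with differences of -0.52 and -0.44 (-0.56 and -0.36 without the third library). The call of CCT4 ended when any of several other single libraries was left out (adjusted p 0.05 to 0.055). Folding genes of the endoplasmic reticulum depended on the third library. Of 26, 2 were higher and 2 lower with 12 libraries (15.4% called), and 11 were higher and 4 lower without it. Their median change was -0.31, -0.33 and 0.19 in the treated Huh7 libraries, so the third went up where the others went down, and -0.11, -0.14 and -0.11 in HepG2. XBP1, a transcription factor of the unfolded protein response, differed by -1.36 ± 0.38 (adjusted p = 0.0236) and by -0.93 ± 0.08 (adjusted p = 2.55e-05) without that library, and its call ended on leaving out any of 3 other single libraries. HSPA5, the main chaperone of that compartment, had a difference of -0.29 ± 0.50 (adjusted p = 0.71) that turned to 0.28 ± 0.08 (adjusted p = 0.0256) and was called without the third library. It was picked after its values were seen.

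Called differences among genes of cholesterol synthesis were mostly higher. Of 24 genes of the pathway and its control, 12 had a higher difference and 2 a lower one (58.3% called), with a median of 0.49 (15 and 7 without the third library, median 0.32). In Huh7 17 fell and 1 rose, and in HepG2 9 fell and 2 rose. Without the third library 17 fell and 3 rose in Huh7, and 13 fell and 7 rose in HepG2. INSIG1, which holds SREBP in the endoplasmic reticulum, stood at 45.2, 48.0 and 44.7 FPKM untreated and 17.6, 18.8 and 8.47 FPKM with geniposide in Huh7, and 74.3, 72.0 and 71.7 FPKM untreated and 84.8, 85.8 and 82.5 FPKM with geniposide in HepG2. The treated values were lower than all controls in Huh7 and higher than all controls in HepG2, where the effect of 0.21 ± 0.21 (adjusted p = 0.478) passed only without the third library (adjusted p = 0.000751). The difference was 1.84 ± 0.30 (adjusted p = 0.00159), and 1.502 ± 0.05 (adjusted p = 5.47e-07) without the third library. HMGCS1, a synthase of the early pathway, fell in both lines (-1.54 in Huh7 and -0.59 in HepG2) and differed by 0.95 ± 0.10 (adjusted p = 0.000158, and 0.87 ± 0.07 with adjusted p = 2.36e-05 without the third library). MSMO1, a demethylase of the later steps, fell in Huh7 and rose in HepG2 (-0.94 in Huh7 and 0.36 in HepG2), a difference of 1.29 ± 0.15 (adjusted p = 0.000268, and 1.15 ± 0.10 with adjusted p = 2.54e-05 without the third library). PMVK, a kinase of the mevalonate branch, had the lowest difference of the list, -0.68 ± 0.15 (adjusted p = 0.00729, and -0.55 ± 0.10 with adjusted p = 0.00226 without the third library). The third treated Huh7 library had a median change of -0.87 over the list, against -0.32 and -0.34 in the other 2.

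Fatty acid genes divided. For synthesis the calls were 4 higher and 3 lower of 16 (43.8% called, and 5 higher and 5 lower without the third library), with a median of -0.01. SREBF1, which encodes the lipid regulator SREBP1, rose in Huh7 and fell in HepG2 (0.37 in Huh7 and -0.83 in HepG2), a difference of -1.19 ± 0.12 (adjusted p = 8.01e-05, and -1.10 ± 0.08 with adjusted p = 1.33e-05 without the third library). Fatty acid synthase, FASN, fell in both lines and more in Huh7, by -1.27 in Huh7 and -0.37 in HepG2 as log2 effects. Its difference was 0.90 ± 0.17 (adjusted p = 0.00397, and 0.73 ± 0.09 with adjusted p = 0.00027 without the third library), a call that ended with quantile normalization (adjusted p 0.059). For oxidation in mitochondria the calls were 1 higher and 6 lower of 17 (41.2% called, and 3 higher and 8 lower without the third library), with a median of -0.24. CPT1A, the gate for entry of fatty acids into mitochondria, stood at 10.2, 9.39 and 9.73 FPKM untreated and 12.8, 12.9 and 11.1 FPKM with geniposide in Huh7, and 27.5, 28.0 and 28.0 FPKM untreated and 18.7, 19.2 and 19.9 FPKM with geniposide in HepG2. It rose in Huh7 and fell in HepG2, with a difference of -0.81 ± 0.08 (adjusted p = 0.000113) and of -0.87 ± 0.05 (adjusted p = 4.14e-06) without the third library. ECI1 and the carnitine carrier SLC25A20 moved the same way, with differences of -0.79 and -0.75 (-0.71 and -0.65 without the third library), although the rise of SLC25A20 in Huh7 did not pass without the third library. ACADSB, a dehydrogenase of branched short acyl chains, was opposite to these: it fell in Huh7 and rose in HepG2, with effects of -0.61 in Huh7 and 0.64 in HepG2 and a difference of 1.25 ± 0.13 (adjusted p = 0.00012, and 1.13 ± 0.08 with adjusted p = 8.46e-06 without the third library). RNF145, a sterol-sensing ubiquitin ligase, also fell in Huh7 and rose in HepG2, with effects of -0.66 in Huh7 and 0.63 in HepG2 and a difference of 1.28 ± 0.17 (adjusted p = 0.000527, and 1.46 ± 0.08 with adjusted p = 2.38e-06 without the third library).

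Hypoxia targets rose in HepG2, and whether they rose in Huh7 turned on 1 library. All 15 such genes outside glycolysis rose in HepG2. In Huh7 5 of them rose with all libraries and all 15 without the third. Their median change was 0.79, 0.76 and -0.21 in the treated Huh7 libraries and 1.16, 1.20 and 1.18 in those of HepG2. The third Huh7 library is thus below its controls where the other 2 are well above. The difference was higher for 6 genes and lower for 0 with 12 libraries (40% called, median 0.59), and higher for 9 and lower for 2 without the third (median 0.47). VEGFA, the vascular growth factor, stood at 4.75, 4.77 and 4.43 FPKM untreated and 9.86, 10.3 and 10.6 FPKM with geniposide in Huh7, and 32.2, 30.8 and 30.7 FPKM untreated and 86.0, 91.9 and 87.1 FPKM with geniposide in HepG2. It rose in all treated libraries of both lines, with a difference of 0.48 ± 0.07 (adjusted p = 0.000742) and of 0.50 ± 0.06 (adjusted p = 0.00015) without the third library. MXI1, a MYC antagonist, differed by 0.97 ± 0.07 (adjusted p = 1.87e-05) and 0.96 ± 0.07 (adjusted p = 1e-05). BNIP3, a mitophagy receptor, stood at 13.3, 13.6 and 13.8 FPKM untreated and 24.97, 27.8 and 6.57 FPKM with geniposide in Huh7, and 50.4, 48.5 and 50.8 FPKM untreated and 133, 139 and 139.9 FPKM with geniposide in HepG2. Its difference of 1.15 ± 0.54 (adjusted p = 0.141) became 0.53 ± 0.06 (adjusted p = 0.000159) without the third library, and NDRG1 went from 0.80 ± 0.54 (adjusted p = 0.305) to 0.19 ± 0.13 (adjusted p = 0.274). HILPDA, a lipid droplet protein, turned from 0.09 ± 0.52 (adjusted p = 0.918) to -0.49 ± 0.15 (adjusted p = 0.0294). BNIP3, NDRG1 and HILPDA were picked after their values were seen.

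Glycolysis depended on the same library. With 12 libraries 3 of 21 genes had a higher difference and 0 a lower one (14.3% called), with a median of 0.54. Without the third library 9 were higher and 2 lower and the median was 0.13. The list's median change was 0.26, 0.36 and -0.60 in the treated Huh7 libraries and 0.46, 0.45 and 0.42 in those of HepG2. GAPDH stood at 498, 496 and 485 FPKM untreated and 632, 699 and 306 FPKM with geniposide in Huh7, and 1974, 1912 and 1947 FPKM untreated and 3411, 3439.6 and 3448 FPKM with geniposide in HepG2. In Huh7 2 treated libraries lay above all controls and the third below them. Its difference was 0.76 ± 0.33 (adjusted p = 0.115) with all libraries and 0.39 ± 0.06 (adjusted p = 0.000973) without the third. LDHA, which makes lactate, had a difference of 0.75 ± 0.61 (adjusted p = 0.388) and then of 0.06 ± 0.05 (adjusted p = 0.367). SLC16A1, a lactate carrier, did not depend on the library: it fell in Huh7 and rose in HepG2 (-0.60 in Huh7 and 0.27 in HepG2), a difference of 0.87 ± 0.07 (adjusted p = 2.93e-05) and of 0.86 ± 0.07 (adjusted p = 1.47e-05). GPI and TPI1, of the upper pathway, had differences of 1.12 and 0.71 (0.94 and 0.52 without the third library), called in both fits. PDK3, a kinase that shuts off pyruvate entry into mitochondria, fell in Huh7 and rose in HepG2, with effects of -0.47 in Huh7 and 1.10 in HepG2 and a difference of 1.57 ± 0.19 (adjusted p = 0.000257, and 1.41 ± 0.13 with adjusted p = 4.24e-05 without the third library). Glucose-sensing arrestins and partners gave 2 higher and 3 lower of 7 (71.4% called, and 2 higher and 4 lower without the third library). TXNIP, which limits glucose uptake, rose in both lines, more in Huh7, with effects of 3.04 in Huh7 and 2.44 in HepG2 and a difference of -0.60 ± 0.15 (adjusted p = 0.0137, and -0.72 ± 0.11 with adjusted p = 0.000959 without the third library).

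**Figure D3:**
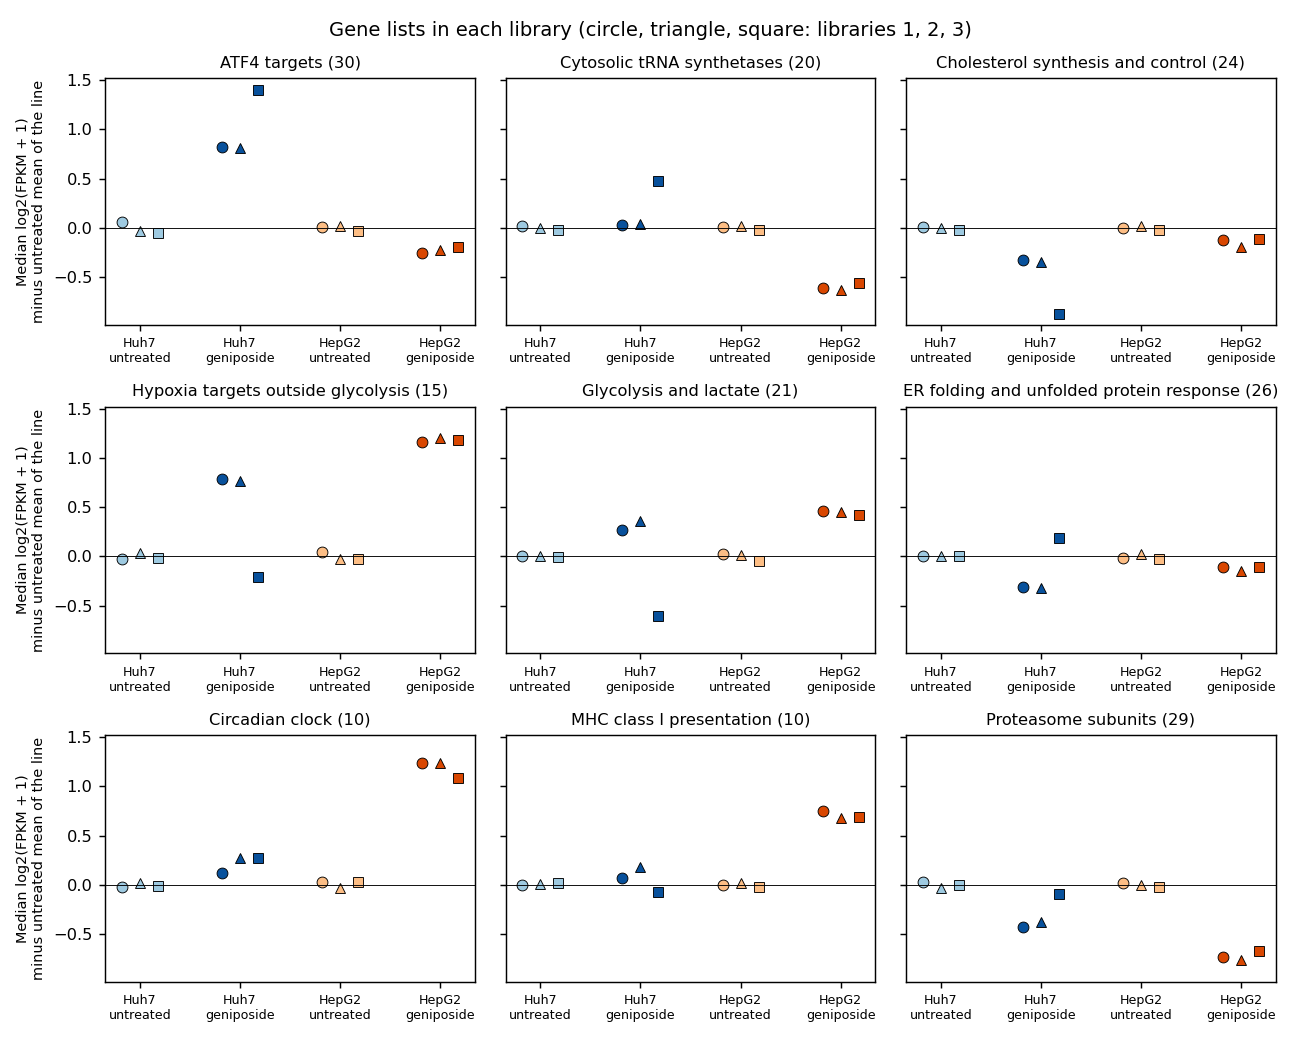
Median over each gene list of log2(FPKM + 1) minus the untreated mean of the line, in each of the 12 libraries, with the number of genes in brackets. The third treated Huh7 library (dark blue square) is the highest for ATF4 targets, at 1.40, and lies below its controls for hypoxia targets and glycolysis, at -0.21 and -0.60, where the other 2 lie above.

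Genes that present peptides on MHC class I had mostly higher differences. Of 10 members 6 rose and 2 fell in HepG2, and 2 rose and 3 fell in Huh7. The difference was higher for 7 and lower for 1 (80% called), with a median of 0.58 (7 higher and 1 lower without the third library, median 0.53). HLA-B, a class I heavy chain, stood at 37.8, 36.2 and 39.0 FPKM untreated and 38.9, 44.6 and 44.3 FPKM with geniposide in Huh7, and 58.0, 61.0 and 56.5 FPKM untreated and 202, 194 and 213 FPKM with geniposide in HepG2. The treated and untreated values overlapped in Huh7 and not in HepG2, with a difference of 1.61 ± 0.09 (adjusted p = 2.97e-06) and 1.64 ± 0.08 (adjusted p = 1.9e-06) without the third library. HLA-C, another heavy chain, differed by 1.15 ± 0.07 (adjusted p = 6.02e-06, and 1.14 ± 0.07 with adjusted p = 3.44e-06 without the third library). Class I heavy chain genes are close relatives, so fragments may be shared among them. B2M, the light chain, fell in Huh7 and rose in HepG2 (-0.31 in Huh7 and 0.76 in HepG2), a difference of 1.07 ± 0.08 (adjusted p = 1.56e-05, and 1.11 ± 0.07 with adjusted p = 3.95e-06 without the third library). TAP2, a peptide pump, went the other way by -0.58 ± 0.10 (adjusted p = 0.0019, and -0.64 ± 0.08 with adjusted p = 0.000325 without the third library). Interferon genes gave 1 higher and 2 lower of 11 (27.3% called, and 2 higher and 3 lower without the third library), with a median of 0.15. IFI6 stood at 8.54, 8.03 and 9.42 FPKM untreated and 10.3, 9.50 and 6.28 FPKM with geniposide in Huh7, and 10.3, 10.4 and 11.96 FPKM untreated and 47.4, 43.8 and 37.9 FPKM with geniposide in HepG2. It differed by 1.91 ± 0.21 (adjusted p = 0.000157, and 1.72 ± 0.13 with adjusted p = 1.67e-05 without the third library). USP18, a brake on interferon signalling, had a difference of -0.84 ± 0.16 (adjusted p = 0.00402, and -0.96 ± 0.13 with adjusted p = 0.000494 without the third library). NF-kB targets gave 3 higher and 1 lower of 8 (50% called, and 4 higher and 1 lower without the third library). SOD2, the mitochondrial superoxide dismutase, fell in Huh7 and rose in HepG2 (-0.29 in Huh7 and 0.86 in HepG2). NFKBIA, the inhibitor of NF-kB, differed by 0.78 ± 0.10 (adjusted p = 0.00038, and 0.76 ± 0.10 with adjusted p = 0.000341 without the third library).

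Of 10 genes of the circadian clock 7 rose and 0 fell in HepG2, and 4 rose and 0 fell in Huh7. The difference was higher for 6 and lower for 1 (70% called), with a median of 0.92 (7 and 2 without the third library, median 0.96). PER1, a repressor of the clock, stood at 5.45, 6.28 and 6.62 FPKM untreated and 6.94, 6.76 and 7.05 FPKM with geniposide in Huh7, and 11.7, 10.99 and 11.6 FPKM untreated and 39.1, 42.2 and 37.6 FPKM with geniposide in HepG2. All treated HepG2 values lay above their controls and so did all treated Huh7 values, by far less, and the Huh7 effect of 0.16 ± 0.07 (adjusted p = 0.0947) did not pass. The difference was 1.55 ± 0.09 (adjusted p = 5.12e-06) and 1.56 ± 0.10 (adjusted p = 4.5e-06) without the third library. DBP and TEF, transcription factors driven by the clock, differed by 1.70 and 1.28 (1.27 and 1.34 without the third library), and the clock repressors CRY2 and NR1D2 by 1.02 and 0.83 (1.05 and 0.88 without the third library), all called in both fits. CRY2 and TEF had untreated means under 2 FPKM in HepG2 and were included through their treated level. Such inclusion favours a higher difference, and the counts and median of the list include both genes. NFIL3, which acts against DBP, rose in both lines and more in Huh7, with effects of 1.25 in Huh7 and 0.39 in HepG2 and a difference of -0.86 ± 0.13 (adjusted p = 0.000888, and -0.96 ± 0.10 with adjusted p = 7.3e-05 without the third library). The labels give a single time of 48 h, so the phase of the clock was not measured. An E-box (CACGTG) was in 3 of 10 clock promoters (30%) and in 10.9% of all members' promoters. The clock promoters with it were those of PER1, TEF and BHLHE40. A pair of them is shown, for PER1 at chr17:8152532-8152617 (minus strand) and TEF at chr22:41367220-41367305 (plus strand), with the E-box in capitals.
PER1: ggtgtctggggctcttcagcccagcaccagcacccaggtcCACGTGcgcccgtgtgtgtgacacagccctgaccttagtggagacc
TEF: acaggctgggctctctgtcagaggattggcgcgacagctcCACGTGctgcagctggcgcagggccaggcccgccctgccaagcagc

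Called differences were lower in HepG2 for DNA replication genes and mostly higher there for mitotic genes. Of 33 replication genes 12 had a lower difference and 0 a higher one (36.4% called, 19 and 0 without the third library), with a median of -0.31. In HepG2 26 fell, and in Huh7 10 did (28 and 16 without the third library). CDC45, of the replicative helicase, stood at 41.7, 39.3 and 36.4 FPKM untreated and 43.9, 45.9 and 48.6 FPKM with geniposide in Huh7, and 22.0, 23.1 and 21.5 FPKM untreated and 11.2, 11.1 and 11.8 FPKM with geniposide in HepG2. It rose in Huh7 and fell in HepG2, with a difference of -1.14 ± 0.08 (adjusted p = 1.65e-05) and of -1.10 ± 0.08 (adjusted p = 8.62e-06) without the third library. MCM10 and POLA1, of replication initiation, differed by -0.62 and -0.40 (-0.57 and -0.38 without the third library). Of 32 mitotic genes 11 had a higher difference and 1 a lower one (37.5% called, 15 and 1 without the third library), with a median of 0.20. In Huh7 21 fell, and in HepG2 15 fell and 1 rose (27, and 20 and 2, without the third library). PLK1, a mitotic kinase, stood at 37.7, 39.3 and 38.5 FPKM untreated and 22.7, 23.9 and 23.3 FPKM with geniposide in Huh7, and 48.2, 50.9 and 48.0 FPKM untreated and 40.7, 39.5 and 43.5 FPKM with geniposide in HepG2. It differed by 0.46 ± 0.07 (adjusted p = 0.000937, and 0.46 ± 0.06 with adjusted p = 0.000406 without the third library). BUB1, of the spindle checkpoint, and INCENP, of the Aurora B complex, fell in Huh7. They differed by 0.63 and 0.76 (0.55 and 0.87 without the third library), called in both fits, and their HepG2 effects of -0.14 and 0.06 did not pass with 12 libraries. Of 28 splicing factors 12 were higher and 0 lower (42.9% called), with a median of 0.23 (16 and 1 without the third library). These calls depended on the scaling: with quantile normalization 5 were higher and 2 lower, and with voom on recovered fragments also 5 and 2. In Huh7 25 of the 28 fell and in HepG2 18 fell and 2 rose (28, and 22 and 3, without the third library). SRSF4 and SRSF5 fell in Huh7 and rose in HepG2 (-0.31 in Huh7 and 0.18 in HepG2, and -0.49 in Huh7 and 0.27 in HepG2).

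Called differences among genes of mitochondrial proteins were lower, in called shares near the 31.1% of all genes and above the 15.2% that were lower. Of 61 mitochondrial ribosomal proteins 20 had a lower difference and 0 a higher one (32.8% called, 21 and 1 without the third library), with a median of -0.17. In HepG2 50 fell and in Huh7 29 (53 and 43 without the third library). Complex I of the respiratory chain gave 10 lower and 0 higher of 33 (30.3% called, 13 and 2 without the third library), and complexes II to V gave 11 lower and 0 higher of 38 (28.9% called, 15 and 1). ATP5F1B, the catalytic subunit of the ATP synthase, differed by -0.52 ± 0.08 (adjusted p = 0.00121, and -0.58 ± 0.05 with adjusted p = 2.93e-05 without the third library). Of the 13 genes of the mitochondrial genome 2 were lower in either fit (15.4%, beside 15.2% lower over all genes). Their part of all fragments went from 4.47 to 4.55% in untreated to 3.70 to 4.11% in treated HepG2, and was 4.85 to 5.16% and 4.99 to 5.06% in Huh7. Ribosome biogenesis gave 2 higher and 8 lower of 30 (33.3% called, and 3 higher and 11 lower without the third library), with a median of -0.28. POLR1B, of RNA polymerase I, differed by -0.44 ± 0.06 (adjusted p = 0.000762, and -0.43 ± 0.05 with adjusted p = 0.000262 without the third library). Cytosolic ribosomal proteins gave 3 higher and 4 lower of 77 (9.09% called, and 6 higher and 8 lower without the third library), a share below the 31.1% of all genes. Host genes of small nucleolar RNAs gave 1 higher and 6 lower of 20 (35% called, and 1 higher and 8 lower without the third library). Of these genes 13 rose in Huh7 and 8 in HepG2 (13 and 11 without that library). SNHG1 rose in both lines, more in Huh7, with effects of 1.67 in Huh7 and 0.69 in HepG2 and a difference of -0.99 ± 0.13 (adjusted p = 0.000388, and -0.87 ± 0.06 with adjusted p = 1.37e-05 without the third library).

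Early response and signalling genes held some of the largest differences. DUSP5, a phosphatase that stops ERK, stood at 5.65, 5.97 and 5.84 FPKM untreated and 2.62, 3.36 and 3.06 FPKM with geniposide in Huh7, and 7.81, 6.78 and 6.85 FPKM untreated and 20.8, 21.1 and 22.5 FPKM with geniposide in HepG2. It fell in Huh7 and rose in HepG2 with no overlap, a difference of 2.23 ± 0.11 (adjusted p = 1.5e-06) and of 2.24 ± 0.11 (adjusted p = 1.46e-06) without the third library. JUN, of the AP-1 factor, stood at 114, 115 and 109 FPKM untreated and 466, 582 and 302 FPKM with geniposide in Huh7, and 17.6, 16.3 and 18.8 FPKM untreated and 14.9, 16.2 and 16.3 FPKM with geniposide in HepG2. It differed by -2.08 ± 0.25 (adjusted p = 0.000296, and -2.35 ± 0.12 with adjusted p = 1.61e-06 without the third library). JUNB was opposite to JUN, with effects of -0.41 in Huh7 and 0.47 in HepG2 and a difference of 0.88 ± 0.13 (adjusted p = 0.000863, and 0.77 ± 0.09 with adjusted p = 0.00013 without the third library). IER5, another early gene, was opposite to JUN too, with effects of -0.36 in Huh7 and 0.32 in HepG2 and a difference of 0.69 ± 0.09 (adjusted p = 0.000592, and 0.69 ± 0.10 with adjusted p = 0.000436 without the third library). AP-1 and early genes gave 6 higher and 3 lower of 15 (60% called, and 8 higher and 5 lower without the third library). Targets of p53 and of growth arrest gave 1 higher and 4 lower of 16 (31.2% called, and 1 higher and 5 lower without the third library). GADD45A rose in Huh7 and its HepG2 groups overlapped, and its difference was -1.74 ± 0.17 (adjusted p = 8.47e-05, and -1.59 ± 0.10 with adjusted p = 6.62e-06 without the third library). DDB2 rose in Huh7 and fell in HepG2, and its difference was -1.23 ± 0.14 (adjusted p = 0.00023, and -1.32 ± 0.13 with adjusted p = 7.18e-05 without the third library). FOXO4, a growth-restraining transcription factor, stood at 34.0, 36.0 and 34.1 FPKM untreated and 24.5, 24.5 and 19.3 FPKM with geniposide in Huh7, and 6.88, 5.98 and 6.02 FPKM untreated and 14.9, 16.4 and 14.2 FPKM with geniposide in HepG2. It differed by 1.74 ± 0.13 (adjusted p = 1.8e-05, and 1.63 ± 0.09 with adjusted p = 2.72e-06 without the third library). TNFRSF12A, the receptor of the cytokine TWEAK, rose in Huh7 and fell in HepG2 (1.33 in Huh7 and -0.73 in HepG2), a difference of -2.06 ± 0.34 (adjusted p = 0.00176, and -1.68 ± 0.09 with adjusted p = 1.94e-06 without the third library). C1QTNF6, a secreted C1q relative, moved the same way, with effects of 0.98 in Huh7 and -0.66 in HepG2 and a difference of -1.65 ± 0.11 (adjusted p = 9.85e-06, and -1.76 ± 0.05 with adjusted p = 1.46e-07 without the third library).

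Other genes at the extremes belong to no single group. H1F0, a linker histone of non-dividing cells, stood at 58.4, 52.3 and 50.7 FPKM untreated and 425, 497 and 769 FPKM with geniposide in Huh7, and 131, 127 and 125 FPKM untreated and 238, 244 and 238 FPKM with geniposide in HepG2. It rose in both lines, by far more in Huh7, with a difference of -2.41 ± 0.24 (adjusted p = 8.1e-05) and of -2.17 ± 0.10 (adjusted p = 8.64e-07) without the third library. SCARF2, a scavenger receptor relative, stood at 24.8, 23.7 and 23.6 FPKM untreated and 15.1, 14.5 and 11.4 FPKM with geniposide in Huh7, and 1.57, 2.03 and 1.70 FPKM untreated and 3.29, 4.12 and 3.82 FPKM with geniposide in HepG2. Its difference was 1.56 ± 0.15 (adjusted p = 6.74e-05, and 1.44 ± 0.11 with adjusted p = 1.65e-05 without the third library), and in HepG2 it reached the limit of 2 FPKM only through its treated libraries. SLCO4A1, an organic anion carrier, and the developmental factors HOXB5 and NR2F1 likewise fell in Huh7 and rose in HepG2, with differences of 1.68, 1.48 and 1.38 (1.45, 1.21 and 1.24 without the third library). CTSF, a lysosomal protease, rose in HepG2 with overlapping groups in Huh7, with effects of 0.02 in Huh7 and 1.79 in HepG2 and a difference of 1.78 ± 0.16 (adjusted p = 5.39e-05, and 1.64 ± 0.11 with adjusted p = 8.78e-06 without the third library). SEMA6B, a semaphorin, fell in HepG2 with overlapping groups in Huh7, with effects of 0.10 in Huh7 and -1.78 in HepG2 and a difference of -1.88 ± 0.14 (adjusted p = 1.49e-05, and -1.99 ± 0.11 with adjusted p = 2.36e-06 without the third library). Lysosome and autophagy genes gave 8 higher and 3 lower of 29 (37.9% called, and 15 higher and 4 lower without the third library). CTSA fell in Huh7 and rose in HepG2 (-0.64 in Huh7 and 0.42 in HepG2), and CTSD rose in HepG2 by 0.84 (difference 0.84 ± 0.07 (adjusted p = 2.93e-05, and 0.85 ± 0.06 with adjusted p = 1.16e-05 without the third library)).

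**Figure D4:**
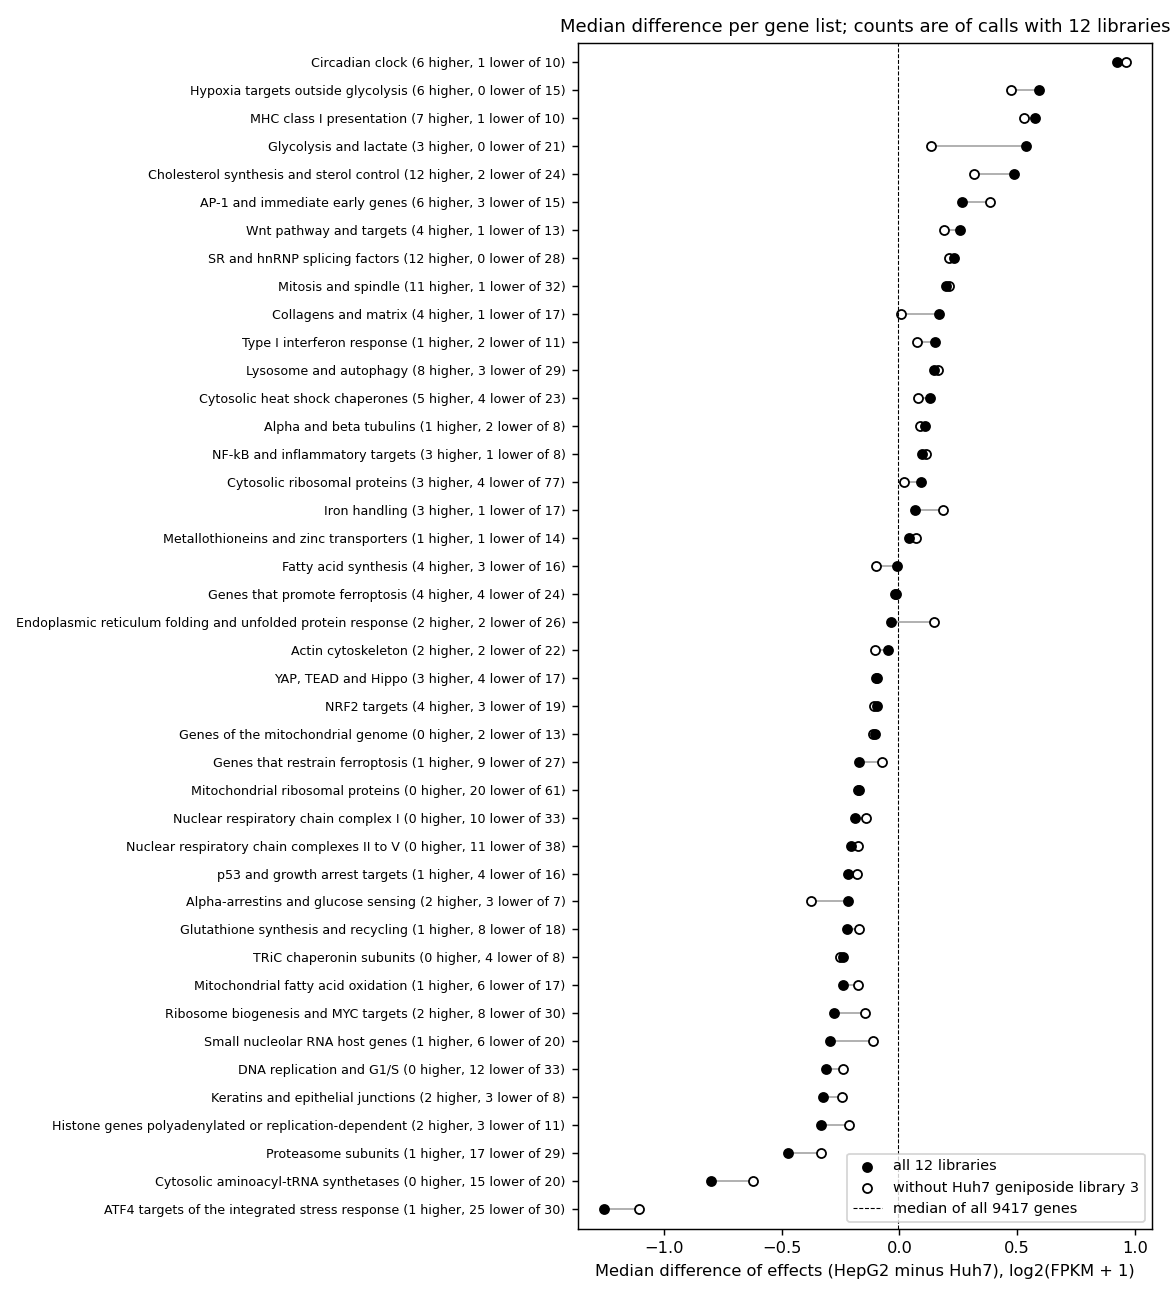
Median difference of effects (HepG2 minus Huh7, log2(FPKM + 1)) of the 42 gene lists, with all 12 libraries (filled) and without the third treated Huh7 library (open), beside the counts of called genes. ATF4 targets are lowest at -1.25 and the circadian clock highest at 0.92, and the glycolysis list moves from 0.54 to 0.13 without that library. The clock list includes CRY2 and TEF, which are members only through their treated HepG2 level.

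Genes that restrain ferroptosis gave 1 higher and 9 lower of 27 (37% called, and 8 higher and 10 lower without the third library). Genes that promote it gave 4 higher and 4 lower of 24 (33.3% called, and 7 higher and 4 lower without the third library). Besides SLC7A11 and SLC3A2, the glutathione synthetase GSS rose in Huh7 and fell in HepG2 (0.26 in Huh7 and -0.68 in HepG2), a difference of -0.94 ± 0.11 (adjusted p = 0.000218, and -0.84 ± 0.05 with adjusted p = 5.2e-06 without the third library). Genes of glutathione synthesis and recycling gave 1 higher and 8 lower of 18 (50% called, and 2 higher and 10 lower without the third library). GPX4, the peroxidase that removes lipid peroxides, stood at 197, 190.3 and 194 FPKM untreated and 188, 207 and 148 FPKM with geniposide in Huh7, and 97.2, 99.2 and 95.1 FPKM untreated and 103, 94.8 and 111 FPKM with geniposide in HepG2. Its groups overlapped in both lines, and the difference of 0.19 ± 0.15 (adjusted p = 0.363, and 0.06 ± 0.08 with adjusted p = 0.64 without the third library) did not pass (95% confidence interval -0.13 to 0.52). ACSL4, which makes the lipids that peroxidise, fell in Huh7 and rose in HepG2 (-0.34 in Huh7 and 0.20 in HepG2), a difference of 0.53 ± 0.07 (adjusted p = 0.000474) and of 0.58 ± 0.05 (adjusted p = 2.48e-05) without the third library. BACH1, a repressor of iron and antioxidant genes, rose in HepG2, with effects of 0.01 in Huh7 and 0.82 in HepG2 and a difference of 0.80 ± 0.09 (adjusted p = 0.000226, and 0.75 ± 0.08 with adjusted p = 9.13e-05 without the third library). LPCAT3, a lipid-remodelling enzyme, fell there, with effects of 0.10 in Huh7 and -0.64 in HepG2 and a difference of -0.74 ± 0.14 (adjusted p = 0.00312, and -0.84 ± 0.11 with adjusted p = 0.000303 without the third library).

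HMOX1, the haem oxygenase, stood at 24.3, 23.8 and 25.8 FPKM untreated and 8.36, 8.51 and 33.0 FPKM with geniposide in Huh7, and 13.9, 13.1 and 14.8 FPKM untreated and 10.5, 10.8 and 11.7 FPKM with geniposide in HepG2. In Huh7 2 treated values lay below all controls and the third above them, so that the difference of 0.51 ± 0.54 (adjusted p = 0.522) passed only without that library, at 1.13 ± 0.08 (adjusted p = 9.94e-06). For the iron proteins, FTH1 differed by 0.31 ± 0.10 (adjusted p = 0.0364, and 0.34 ± 0.09 with adjusted p = 0.0103 without the third library), a call that ended on leaving out any of 9 single libraries. FTL had a difference of -0.26 ± 0.10 (adjusted p = 0.0849, and -0.25 ± 0.10 with adjusted p = 0.0773 without the third library). TFRC, the transferrin receptor, fell in both lines (-0.69 in Huh7 and -0.65 in HepG2) with a difference of 0.04 ± 0.21 (adjusted p = 0.914, and 0.25 ± 0.10 with adjusted p = 0.0636 without the third library). NCOA4, the ferritinophagy receptor, had a difference of -0.06 ± 0.08 (adjusted p = 0.59, and -0.08 ± 0.07 with adjusted p = 0.403 without the third library). NOXA1 and CYBA, partners of NADPH oxidases, rose in both lines and fell in both lines respectively. Their differences of -0.20 and 0.09 (-0.17 and 0.08 without the third library) did not pass in either fit. Iron handling gave 3 higher and 1 lower of 17 (23.5% called, and 7 higher and 1 lower without the third library). NRF2 targets gave 4 higher and 3 lower of 19 (36.8% called, and 7 higher and 8 lower without the third library).

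DUOX1, AIFM2, CHAC1 and PTGS2 are outside the comparison because their mean was under 2 FPKM in a line, and are given for their known parts in ferroptosis. DUOX1 was below the filter and was tested in the fit without one, and the other 3 in the fit of the 15518 genes. DUOX1 stood at 0.0854, 0.0947 and 0.0962 FPKM untreated and 0.25, 0.383 and 0.288 FPKM with geniposide in Huh7, and 0.268, 0.195 and 0.3 FPKM untreated and 0.895, 0.756 and 0.72 FPKM with geniposide in HepG2. All treated values lay above the controls in both lines, by 3.33-fold in Huh7 and 3.11-fold in HepG2, and the difference was 0.25 ± 0.09 (adjusted p = 0.193, and 0.24 ± 0.10 with adjusted p = 0.234 without the third library). On log2(FPKM + 1) a like fold gives a larger effect at a higher level, so this difference was positive although the fold was larger in Huh7. CHAC1, a glutathione-degrading target of ATF4, stood at 6.84, 3.32 and 3.52 FPKM untreated and 32.1, 33.8 and 81.3 FPKM with geniposide in Huh7, and 0.686, 1.09 and 1.45 FPKM untreated and 0.532, 0.412 and 0.466 FPKM with geniposide in HepG2. It differed by -3.57 ± 0.47 (adjusted p = 0.000447, and -3.15 ± 0.32 with adjusted p = 7.39e-05 without the third library). PTGS2, a prostaglandin synthase used as a ferroptosis marker, stood at 0.0876, 0.135 and 0.0802 FPKM untreated and 0.183, 0.0758 and 0.316 FPKM with geniposide in Huh7, and 3.47, 3.35 and 3.77 FPKM untreated and 20.997, 19.0 and 17.1 FPKM with geniposide in HepG2. It rose in HepG2, and differed by 2.03 ± 0.13 (adjusted p = 5.58e-06, and 2.11 ± 0.11 with adjusted p = 2.38e-06 without the third library), while in Huh7 it stayed at or under 0.316 FPKM with overlapping groups. AIFM2, a coenzyme Q reductase that guards membranes, differed by 0.22 ± 0.14 (adjusted p = 0.28, and 0.32 ± 0.11 with adjusted p = 0.0435 without the third library).

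Wnt genes gave 4 higher and 1 lower of 13 (38.5% called, and 7 higher and 3 lower without the third library), with FZD7, a Wnt receptor, lower in Huh7 and higher in HepG2 (-0.58 in Huh7 and 0.71 in HepG2). YAP and Hippo genes gave 3 higher and 4 lower of 17 (41.2% called, and 3 higher and 6 lower without the third library). Collagens and matrix gave 4 higher and 1 lower of 17 (29.4% called, and 7 higher and 3 lower without the third library), and actin genes gave 2 higher and 2 lower of 22 (18.2% called, and 4 higher and 7 lower without the third library). TIMP1, an inhibitor of matrix proteases, fell in Huh7 and rose in HepG2, with effects of -0.35 in Huh7 and 0.61 in HepG2 and a difference of 0.97 ± 0.11 (adjusted p = 0.000169, and 0.95 ± 0.11 with adjusted p = 0.000161 without the third library). Keratins and junctions gave 2 higher and 3 lower of 8 (62.5% called, and 2 higher and 3 lower without the third library). KRT8 and KRT18, the simple epithelial keratins, fell in both lines and more in HepG2, with differences of -0.56 and -0.46 (-0.58 and -0.41 without the third library), where the cholangiocyte markers, which include 2 other keratins, also went down, and their part was not tested. Tubulins gave 1 higher and 2 lower of 8 (37.5% called, and 2 higher and 2 lower without the third library), and histones 2 higher and 3 lower of 11 (45.5% called, and 2 higher and 5 lower without the third library). Metallothioneins and zinc transporters gave 1 higher and 1 lower of 14 (14.3% called, and 4 higher and 1 lower without the third library), with a median of 0.04 whose sign depended on the scaling (-0.013 to 0.047).

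Few differences needed the third Huh7 library to be called. The 10 protein-coding genes with the largest differences among the 25 that were lost without it were RPS23, COX14, DDX19B, DEPDC1B, GFER, C6orf47, RAD52, NATD1, ISCA2 and MPP1. Their adjusted p was 0.0407 to 0.0479 with all libraries and 0.0522 to 0.0685 without it. RPS23, a ribosomal protein, went from 0.77 ± 0.25 (adjusted p = 0.0407) to 0.69 ± 0.26 (adjusted p = 0.0628), and COX14, an assembly factor of complex IV, from -0.70 ± 0.23 (adjusted p = 0.0421) to -0.54 ± 0.20 (adjusted p = 0.0535). Both sat near the threshold in both fits.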

How the data were processed

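Poly(A) RNA was sequenced in 12 libraries, 3 in each of the 4 groups that the labels give by cell line and treatment, and nothing in the labels' protocols marks the strand, so overlapping genes on opposite strands cannot be told apart. The deposited table holds FPKM for 58735 genes, computed by the authors, with 0 columns left unmatched to a sample. The tools CASAVA and fastp and the build hg38 are named per the submitters' processing notes, with the aligner and counter not given in the sources used here. FPKM multiplied by gene length gave whole fragments in 100% of values within 0.05 fragments, 15056655 to 17211659 per library, and 3 fragments in a gene of 1 kb equal 0.161 to 0.212 FPKM. Such floors cover counting error only, since the labels name no molecular identifiers and fragments may be copies.

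Changes in log2(FPKM + 1) were tested by limma 3.58.1 (R 4.3.3) with 4 group means over the 12 libraries and 8 residual degrees of freedom. Variances were moderated along a trend with level, tests were two-sided, and the Benjamini-Hochberg threshold was 0.05 over the 15518 genes with 1 FPKM or more in at least 3 libraries. A change on that scale understates the change of low genes. The difference was refitted without the third geniposide-treated Huh7 library, with other pseudocounts (0.1 and 0.5 FPKM), filters, scalings and models, with voom on the recovered fragments, and leaving out each library. The scripts were tested on simulated data in which all groups of a gene had the same spread. That test does not cover the larger spread of treated Huh7 in these data. The labels do not say whether the libraries of a group came from separate cultures, so p-values reflect only how far these samples spread, and that spread may be technical. Every pair of libraries in a group differed by more than sampling noise (chi-square per degree of freedom 2.15 or more). It was 38.9 and 40.0 for pairs with the third treated Huh7 library and 5.45 and 6.06 for pairs with the third treated HepG2 library. The remaining pairs gave 2.15 to 2.87, the latter for treated Huh7 libraries 1 and 2.

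Named genes are the 12 highest and 12 lowest differences among protein-coding genes called in both fits, up to 8 opposite genes each way, 10 calls lost without the third library, a fixed set for ferroptosis and oxidases, and up to 4 called genes with the smallest p from each list with at least 3 calls. Further members of the 42 lists are named to describe a list or because the third library changed their value. All 1069 list symbols matched a gene (41 by an older symbol), and 871 genes were members. The members and lists were chosen with earlier results of these data known. Promoters are RefSeq's for GRCh38.p14, and 7339 members had one. Besides the amino acid response element and the E-box, other letters were searched. A sterol element (TCACNCCAC) was in 1 of 18 cholesterol promoters (1.06% of members'). A hypoxia element (ACGTG) was in 6 of 11 promoters of hypoxia targets (28.7% of members'). A D-box (TTANGTAA) was in 1 of 10 clock promoters (0.954% of members'). Results for a few genes that the rule names are not reported here.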

Additional observations from a re-analysis of the deposited data

Results flagged for a closer look

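The change with geniposide differed between the lines, by the test of the difference itself, for 1503 genes that were higher in HepG2 and 1429 that were lower. In 383 genes the effects were opposite and both were called. At the extremes stood the chaperone gene HSPA1A, with a difference of 2.54, and the stress repressor ATF3, with a difference of -3.16. HSPA1A was 2.59 and ATF3 -2.76 without the third treated Huh7 library. No group had 4 or more libraries, so single libraries were not tested as outliers.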

How the results depend on the processing

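Of the 188 genes that the rule names, 181 were called, and 149 of these kept their call and direction in every alternative run, with 0 reversals among calls. Apart from the fixed set and the lost calls, the rule picks genes by large or low-p differences in these same data. That choice favours kept calls, so these counts do not describe the 9417 genes. The difference of TFRC, which was not called, changed sign in some alternatives, and those of HSPA5, HILPDA, SHMT2 and ATF4 changed sign without the third treated Huh7 library. Leaving out 1 library at a time gave 2258 to 4308 called differences (1166 to 2225 higher and 1089 to 2083 lower), 3084 to 5311 called effects in Huh7, 4042 to 6158 in HepG2 and 259 to 706 opposite genes. The highest of each range came without the third treated Huh7 library. Without a filter on low genes 1823 differences were called (959 higher, 864 lower) and 201 genes were opposite, with more genes tested. With array weights 4503 were called (2309 higher, 2194 lower) and 738 were opposite, and the cause was not tested. Other pseudocounts and scalings gave 2787 to 3025 calls among the 9417 genes. Other levels of membership changed the number of genes: 5 FPKM in each line gave 2083 calls of 6289 genes, and 1 FPKM gave 3304 of 11293. For voom the calls were 1145 higher and 1732 lower, and without the third library 1895 higher and 2753 lower, an alternative chosen after seeing the data, as were TPM (2098 and 2099) and median-of-ratios scaling (2273 and 2072) and the fit with no filter (1651 and 1455) without that library.

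Libraries that share a number in a line did not deviate together: the correlations of same-numbered treated and untreated libraries were -0.14 to 0.03, so the numbers were not taken to pair them. With the replicate number as a block 2755 differences were called (1408 higher, 1347 lower), and with a block within each line 2160 (1126 higher, 1034 lower), with 249 opposite genes and the cause not tested. The called share was 23.9% under a mean of 5 FPKM and 36.4% at 50 FPKM or more, and the part of depth in this was not tested.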

Other observations

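The called share differed by kind of gene. Of 8657 protein-coding genes 32.4% were called, of 295 long non-coding RNAs 22.4% and of 331 pseudogenes 13.9%. Without the third treated Huh7 library these shares were 47.9%, 27.1% and 19.9%. Pseudogenes had 31 higher and 15 lower differences, and long non-coding RNAs 37 and 29. No test compared these shares.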
